A study of Drosophila melanogaster with 2 samples.

Results

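The small subunit of the cytoplasmic ribosome is built on an RNA scaffold by a fixed set of proteins, and 38 Drosophila melanogaster genes for these proteins are described here by the ChIP peaks of the transcription factor REPTOR at their start sites. They were chosen by name alone from 13945 protein-coding genes on the chromosome arms: the symbol had to be RpS followed by a number, with or without letters, and sta, the fly gene for the subunit protein called SA in other animals, was added. No measured value entered this rule. The values come from chromatin immunoprecipitation followed by sequencing (ChIP-seq) with an antibody against GFP in mixed-sex embryos collected over 0 to 24 h, from a line stably carrying CG13624 (REPTOR) with GFP at its C terminus. There were 2 biological replicates of this single group, labelled 1 and 3, and no other genotype, treatment or time. What promoter drove the transgene, and whether the line also kept its own REPTOR gene intact, is not given in the sources used here. Each replicate was a pool of whole embryos, so strong binding in few cells and weak binding in many cannot be told apart.

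The small subunit binds messenger RNA, scans for the start codon and checks the pairing of transfer RNA with the message. Its head and its body move against each other as the ribosome steps along the message. Ribosomal protein genes are among the most highly transcribed genes of growing cells, and in flies the loss of 1 copy of many of them gives the Minute phenotype of slow growth and short bristles. Their promoters often start transcription in a run of pyrimidines, the TCT initiator, in place of the usual initiator. REPTOR is a basic leucine zipper factor that the growth kinase TORC1 keeps out of action by phosphorylation. RpS6 is the classic substrate of S6 kinase, which TORC1 switches on.

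The start-site sequences of the most strongly bound genes, and of gene pairs matched by symbol (final letter a or b), are shown first. Most of the peaks described below lie on or beside them. Each run holds the 100 bases before the annotated start of the gene and the first 20 bases from it, read 5′ to 3′ on the strand of the gene from the RefSeq Release 6 assembly (dm6). Capitals mark matches, on either strand, to the searched motifs that are named in the paragraph on motifs, and the letters CTTT where they begin within 10 bp of the start. The shorter core of the DRE, also given there, is capitalised only within a whole DRE.
RpS27, chr3R:25247495-25247614, minus strand: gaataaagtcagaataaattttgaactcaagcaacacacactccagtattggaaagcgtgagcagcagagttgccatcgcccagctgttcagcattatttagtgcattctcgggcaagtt
RpS20, chr3R:20822081-20822200, plus strand: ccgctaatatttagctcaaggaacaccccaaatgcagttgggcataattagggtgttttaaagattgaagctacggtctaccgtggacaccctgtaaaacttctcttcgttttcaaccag
RpS25, chr3R:11216268-11216387, minus strand: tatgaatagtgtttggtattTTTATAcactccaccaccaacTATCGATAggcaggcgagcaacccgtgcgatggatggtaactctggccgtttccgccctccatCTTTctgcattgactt
RpS29, chr3R:9777942-9778061, plus strand: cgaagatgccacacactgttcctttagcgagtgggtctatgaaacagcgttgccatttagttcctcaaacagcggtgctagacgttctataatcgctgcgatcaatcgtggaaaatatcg
RpS10b, chrX:19597931-19598050, plus strand: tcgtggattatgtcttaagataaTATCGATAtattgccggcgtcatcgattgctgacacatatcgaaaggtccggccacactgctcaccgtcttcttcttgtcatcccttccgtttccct
RpS10a, chr3R:27652660-27652779, plus strand: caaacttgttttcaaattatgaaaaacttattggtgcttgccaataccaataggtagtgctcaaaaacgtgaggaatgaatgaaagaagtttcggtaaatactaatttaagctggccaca
RpS14a, chrX:7933642-7933761, plus strand: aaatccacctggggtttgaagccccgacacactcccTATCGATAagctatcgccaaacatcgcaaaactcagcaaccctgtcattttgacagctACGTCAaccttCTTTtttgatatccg
RpS14b, chrX:7934798-7934917, plus strand: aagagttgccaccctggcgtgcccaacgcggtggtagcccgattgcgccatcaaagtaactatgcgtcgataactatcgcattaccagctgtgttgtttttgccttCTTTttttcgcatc
RpS19a, chrX:16637794-16637913, plus strand: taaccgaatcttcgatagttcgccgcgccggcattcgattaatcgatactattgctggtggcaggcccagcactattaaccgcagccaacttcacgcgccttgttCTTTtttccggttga
RpS19b, chr3R:23933511-23933630, minus strand: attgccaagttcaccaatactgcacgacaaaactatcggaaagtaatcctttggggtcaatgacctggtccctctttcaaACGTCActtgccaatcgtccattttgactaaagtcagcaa
RpS28a, chr3R:30022629-30022748, minus strand: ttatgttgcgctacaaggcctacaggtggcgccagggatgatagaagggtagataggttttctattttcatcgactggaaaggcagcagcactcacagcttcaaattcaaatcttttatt
RpS28b, chrX:9554523-9554642, plus strand: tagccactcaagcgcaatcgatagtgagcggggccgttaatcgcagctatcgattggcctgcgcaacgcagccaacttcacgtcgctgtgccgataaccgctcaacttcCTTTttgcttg
RpS5a, chrX:17148245-17148364, minus strand: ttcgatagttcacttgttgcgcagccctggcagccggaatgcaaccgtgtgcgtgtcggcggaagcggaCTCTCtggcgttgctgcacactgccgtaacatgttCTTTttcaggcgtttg
RpS5b, chr3R:14901544-14901663, minus strand: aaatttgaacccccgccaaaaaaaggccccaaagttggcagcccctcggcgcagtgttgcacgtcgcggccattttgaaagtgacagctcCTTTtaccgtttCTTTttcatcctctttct
RpS25, RpS10b and RpS14a hold the DRE, the site of the promoter factor DREF, in these stretches. RpS27, RpS20, RpS29, RpS10a and RpS28a hold no whole match to the motifs in capitals. The DRE core also lies, in lower case, in the stretches of RpS10b, RpS19a and RpS28b. In RpS25, RpS14a, RpS14b, RpS19a, RpS28b, RpS5a and RpS5b the letters CTTT begin less than 10 bp after the annotated start.

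REPTOR peaks lay at 34 of the 38 small-subunit genes (89.5%). A gene was counted when the summit of a peak in the authors' optimal list, which holds 5321 peaks that passed a threshold on agreement between replicates, was no more than 1000 bp from any start site (TSS) of the gene. By the same rule 4226 of all 13945 protein-coding genes (30.3%) were counted. Large-subunit genes stood at 41 of 48 (85.4%) and genes for mitochondrial ribosomal proteins at 42 of 73 (57.5%). The difference between these shares was not tested. Each of the 34 genes had its own strongest peak, and 6 of them had 2 promoter summits, which makes 40 distinct summits. How often other genes have 2 promoter summits is not given here. The genes with a peak were 9 of 9 on X, 11 of 12 on 3R, 6 of 7 on 2R, 4 of 5 on 2L, 3 of 4 on 3L, and RpS3A on chromosome 4.

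**Figure D1:**
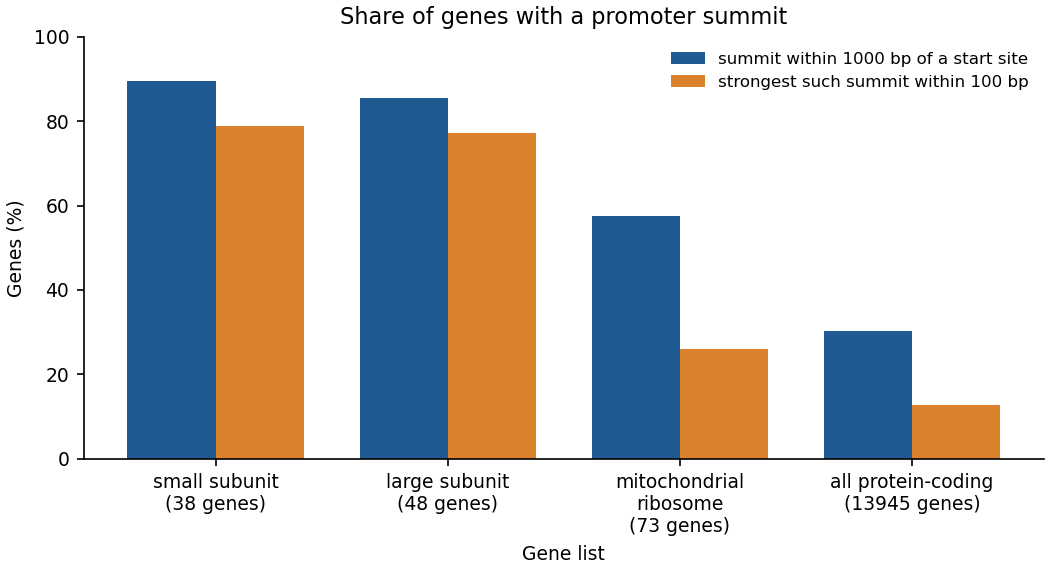
Share of genes in each list with a summit of the optimal list within 1000 bp of a TSS (blue bars, percent of genes) and share whose strongest such summit lay within 100 bp (orange bars). Small-subunit genes reach 89.5% and 78.9%, and all protein-coding genes 30.3% and 12.8%.

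The strength of the peaks varied widely from gene to gene. The authors' peak signal, whose scale depends on the reads in each list, ran from 77.9 to 2773 in the optimal list with a median of 125. The strongest promoter peaks of the 34 genes ran from 84.5 to 693 at RpS27, with a median of 142. Over all genes with a promoter peak that median was 138. Ranked from the strongest peak of the list downward, the small-subunit genes had a median rank of 2168, against 2229.5 for all genes with a promoter peak and 699 for large-subunit genes. Among the first 1000 peaks were those of 13 small-subunit genes (34.2% of 38), beside 7.41% of all protein-coding genes. These 13 had signals of 217 to 693, and the remaining 21 had signals of 84.5 to 206.

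**Figure D2:**
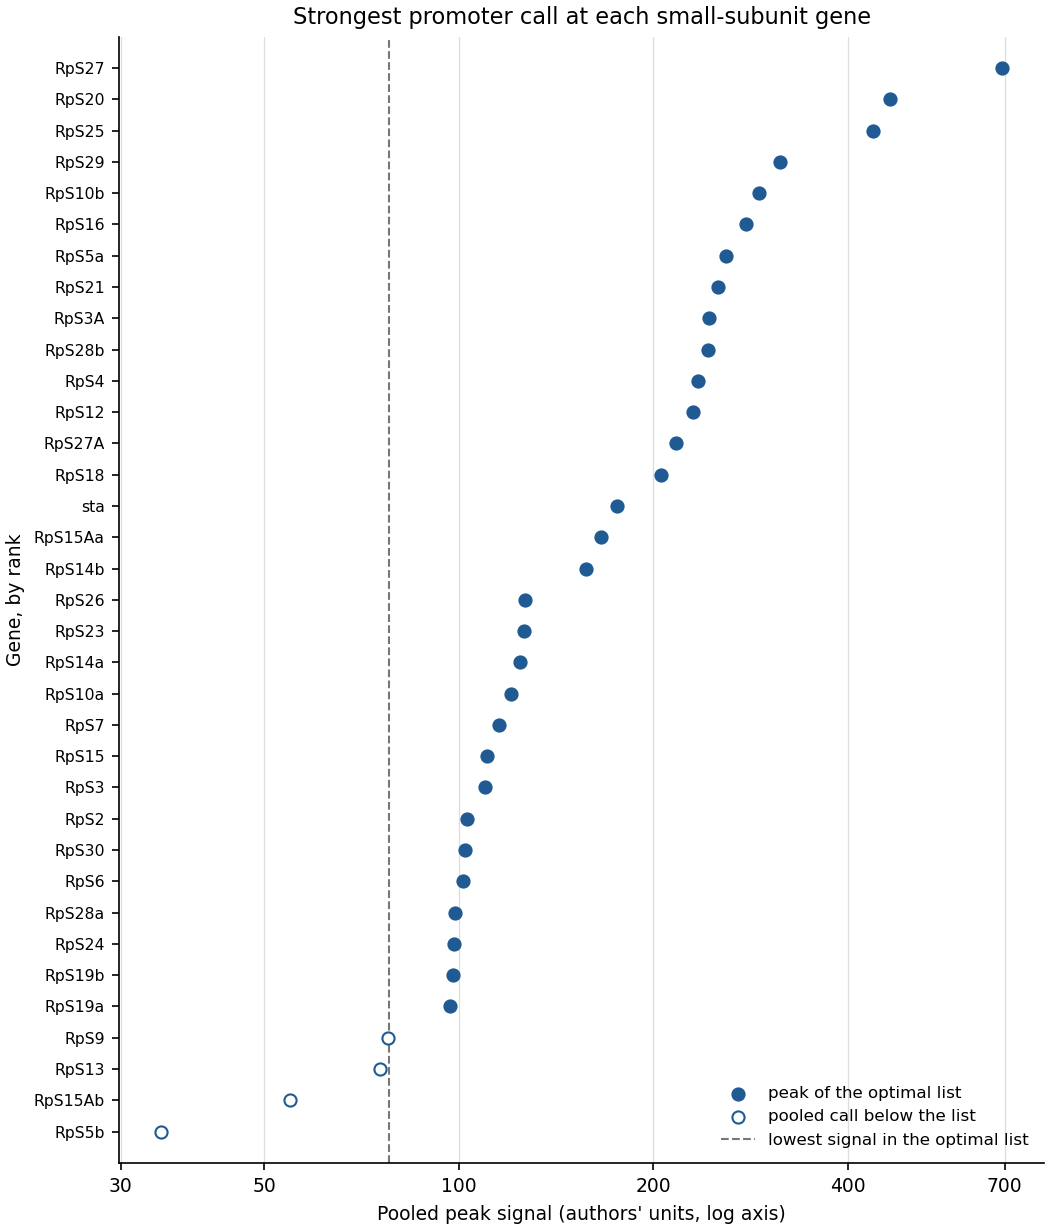
Pooled signal of the strongest promoter call at 35 of the 38 genes, in the authors' units on a log axis. Filled points are peaks of the optimal list, open points are calls below it, and the dashed line is the lowest signal in the list, 77.9. RpS27 stands highest at 693, RpS9 and RpS13 lie just left of the line, and RpS15Ab and RpS5b lie well below it.

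RpS27, for a zinc-binding protein of the body of the subunit, carried the strongest peak (dm6 3R, 25247350 to 25247700, signal 693, rank 70). Its signal was 283 in replicate 1 and 412 in replicate 3, and its ranks there were 108 and 53. RpS20, for a head protein, had a peak of 464 (3R, 20821855 to 20822179, rank 180), with 237 and 219 in replicates 1 and 3. RpS25, for a head protein known for its part in initiation at internal ribosome entry sites, had a peak of 438 (3R, 11216224 to 11216496, rank 208), with 198 and 235. The replicate ranks were 175 and 213 at RpS20 and 253 and 187 at RpS25, so all 3 genes stood near the top of both lists.

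RpS29, for a small zinc-binding protein of the head, had a peak of 315 (3R, 9777928 to 9778162, rank 438), with 141 in replicate 1 and 178 in replicate 3. RpS10b, for a head protein near the entry of the messenger RNA channel, followed at 292 (X, 19597914 to 19598111, rank 523), with 116 and 173. RpS16, for a head protein whose tail reaches the transfer RNA in the peptidyl site, had a peak of 279 (2R, 22605969 to 22606211, rank 578), with 127 and 149. These 3 peaks ranked between 330 and 853 in the replicates. RpS5a, for a head protein beside the exit of the messenger RNA channel, had a peak of 259 (X, 17148209 to 17148422, rank 689), with 108 and 151. RpS21, known in flies for the overgrown blood-forming organs of its mutants, had a peak of 252 (2L, 2855954 to 2856172, rank 728), with 125 and 120. RpS21 was the single one of these 8 strongest members, beside RpS20, with the higher signal in replicate 1.

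Members for the head of the subunit and for its body both had peaks. Of 18 head genes 17 had a peak, all but RpS5b, and of 20 body genes 17 had one, all but RpS9, RpS13 and RpS15Ab. Among those with a peak the head genes had a median rank of 971 (180 to 4282) and the body genes of 2595 (70 to 4777), and the ranges overlapped. The median ranks were 1065 and 2637 in replicate 1 and 1086 and 1857 in replicate 3. The first 1000 peaks held 9 head genes and 4 body genes. Beside the strongest members, the first 1000 held RpS3A (244), RpS28b (243), RpS4 (235), RpS12 (231), whose protein is known in flies for its role in cell competition, and RpS27A (217), which encodes the protein as a fusion with ubiquitin. The grouping into head and body follows textbook structure and was made with the values known.

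Of the 21 bound members beyond the first 1000 peaks, 15 lay in the lower part of the list, with signals of 84.5 to 124. RpS18, for a head protein at the contact with the large subunit, had a signal of 206, and sta had 176. RpS6 had a peak of 102 (X, 7901214 to 7901324, rank 3645), and its replicates were 33.1 and 78.5. The summit lay in its 5′ UTR, where the noncoding gene CR33222 is annotated as well. RpS23, for a protein at the decoding site, had a peak of 126, with 49.9 in replicate 1 and 79.9 in replicate 3. RpS3, for a protein at the entry of the messenger RNA channel, had a peak of 110, and RpS2, for its neighbour there, one of 103. RpS30, which in animals is encoded as a fusion with a ubiquitin-like protein, had 103 as well, with 62.2 and 41.2 in the replicates. RpS26, RpS7, RpS15 and RpS24 had signals from 127 down to 98.5.

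RpS9 and RpS13 missed the list narrowly. RpS9, for a body protein at the entry of the messenger RNA channel, had a call on both replicates together with a signal of 77.7 at rank 5339 (3L, 9511292 to 9511727), which is 18 places below the end of the list. Its replicate ranks were 7201 and 5155. RpS13, for a body protein, had a call of 75.6 at rank 5541 (2L, 8364577 to 8365012), with replicate ranks of 4456 and 5890. The other 2 members outside the list were second gene copies: RpS15Ab stood at rank 8392 with a signal of 54.8, and RpS5b at rank 15019 with 34.7. The deposited −log10 q of the RpS5b call was 0.482 in replicate 1 and 0.770 in replicate 3.

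Both replicates placed most members alike. At 30 of the 38 genes (78.9%) the strongest peak ranked among the first 5321 calls of each replicate taken alone, beside 24.7% of all protein-coding genes. Counted over genes with a peak alone, the shares were closer, 88.2% of members and 81.4% of all. That difference was not tested. The other 4 bound genes fell out of that range in a single replicate, among them RpS6 (6780) in replicate 1 and RpS30 (5502) and RpS19b (5991) in replicate 3. Over the 34 bound genes the ranks ran from 108 to 6780 in replicate 1 (median 2326) and from 53 to 5991 in replicate 3 (median 1792.5). The rank was better in replicate 1 at 15 genes and in replicate 3 at 19. Across the 34 genes the replicate signals had a Spearman rho of 0.79, given as a description, since the peaks were selected on both replicates and share their libraries.

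Replicate ranks differed by more than 2 times at 5 of the 34 genes (14.7%), beside 19.5% of all optimal peaks with a call in both replicates. RpS6 differed most, at rank 6780 in replicate 1 and 1918 in replicate 3. RpS10b (853 and 364), RpS23 (3830 and 1857) and RpS27 (108 and 53) also ranked better in replicate 3, and RpS30 (2728 and 5502) ranked better in replicate 1. For RpS27 the difference is between 2 ranks near the top of each list. The median log2 ratio of replicate 1 to replicate 3 signal was -0.23 over the 34 genes and -0.04 over all optimal peaks.

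**Figure D3:**
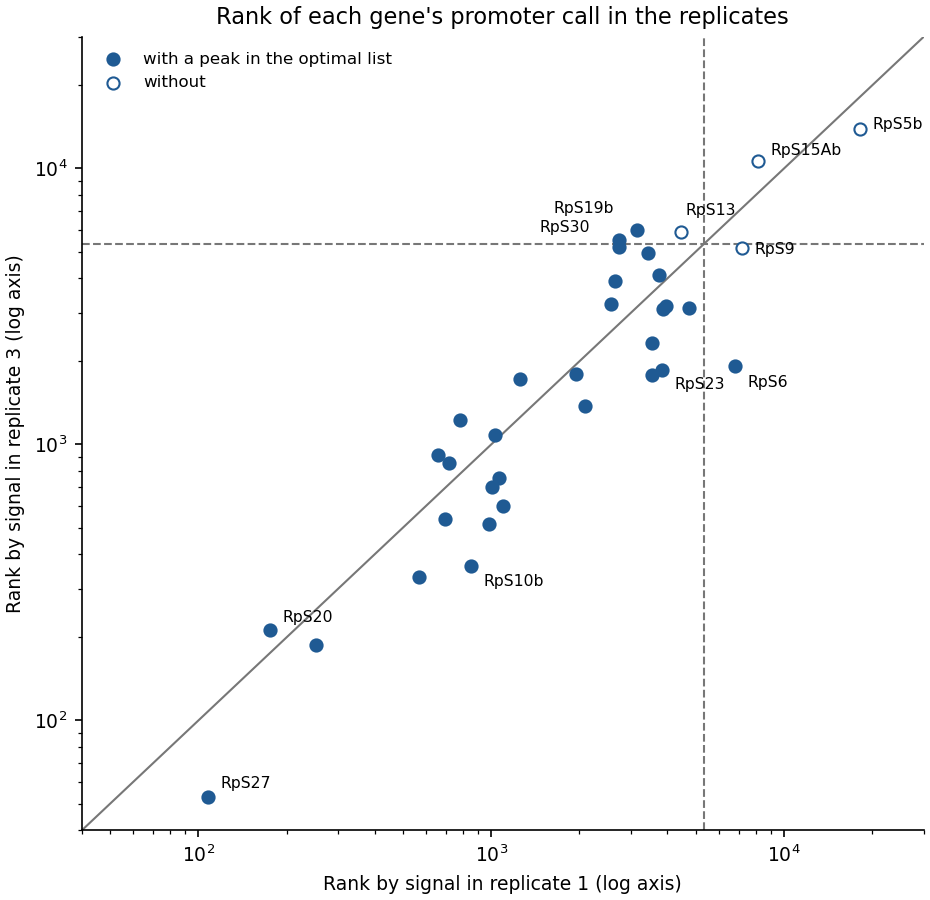
Rank by signal of each gene's strongest promoter call in replicate 1 (x axis) and replicate 3 (y axis), both on log axes, for 31 of the 34 genes with a peak in the optimal list (filled) and 4 without (open). The line marks equal ranks and the dashed lines mark rank 5321. RpS27 lies at 108 and 53, and RpS6 lies farthest from the line, at 6780 and 1918.

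The peaks lay close to the start sites. The strongest summit was within 100 bp of a TSS at 30 of the 38 genes (78.9%), beside 77.1% of large-subunit genes and 12.8% of all protein-coding genes. Counted over genes with a peak alone, these shares were 88.2%, 90.2% and 42.3%. Their differences were not tested. At 23 members the summit was within 50 bp, a count not given here for all genes. The median distance was 32 bp over the 34 bound genes, 51 bp for large-subunit genes, 123 bp for mitochondrial ones and 130 bp over all genes with a promoter peak. Distances run to the nearest annotated TSS, and more of these can shorten them. The median number of TSSs per gene was 2 for small-subunit genes, 1.5 for large-subunit genes, and 1 for mitochondrial and for all protein-coding genes. The summit was upstream of the nearest TSS at 27 genes and downstream at 7, with a median position of -22.5 bp. Of the 27, those of RpS16, sta, RpS30, RpS23, RpS15Aa and RpS4 lay 29 to 354 bp inside the gene, before a later TSS. The same split was not counted over all genes. At RpS21, RpS18, RpS24 and RpS23 the summit was 1, 2, 5 and 5 bp upstream of the nearest TSS. In the annotation 19 summits were intergenic, 11 fell in a 5′ UTR of the gene and 2 in its intron. None fell in the coding sequence of the gene. Shares of these places over all genes are not given here, so none is shown to be particular to the members.

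The distance to the nearest TSS held in the replicates, most closely at strong peaks. At the 34 genes the signed distances of the replicate summits to their nearest TSS differed by a median of 22.5 bp, and at most 127 bp, at RpS14a. Where a gene has several TSSs the distances can run to different ones, so the difference need not be the gap between the summits. Among the 13 genes in the first 1000 peaks that median was 9 bp, and among the 15 in the lower part of the list it was 43 bp. The latter peaks had mostly the same width: 14 of the 15 spanned exactly 436 bp, while none of the 13 strong ones did. Widths and these differences were not counted over all optimal peaks, so neither is shown to be particular to these genes.

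**Figure D4:**
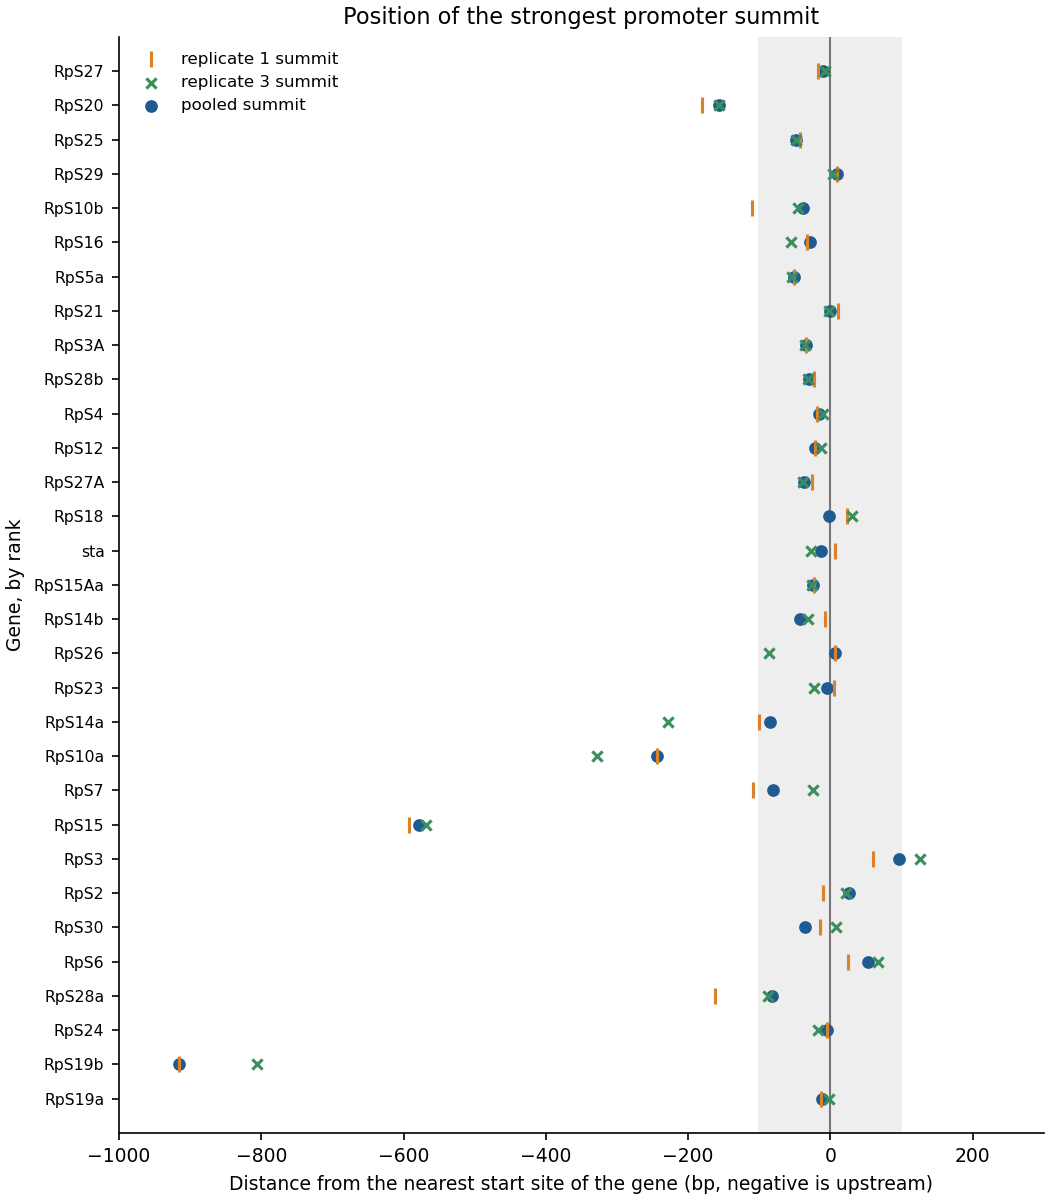
Distance in bp from the strongest promoter summit to the nearest TSS of 31 of the 34 bound genes, ordered by rank, for the pooled call (points), replicate 1 (bars) and replicate 3 (crosses). The grey band covers 100 bp on either side, and RpS20, RpS10a, RpS15 and RpS19b have their pooled summits outside it.

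The exceptions were RpS20 (157 bp upstream), RpS10a (244 bp upstream), RpS15 (578 bp upstream) and RpS19b (916 bp upstream). The RpS15 summit (2R, peak 16571590 to 16572025, signal 111) was closer to the start of its neighbour CG4927, 274 bp away. RpS15 also had a weaker summit, 34 bp inside its own 5′ UTR, with a signal of 91.5 at rank 4240. The RpS19b summit (3R, peak 23934228 to 23934663, signal 98.2) lay in an intron of CG5854, 534 bp inside that gene from its start. The RpS10a summit lay in an intron of tau. A summit can therefore be counted for RpS15 and RpS19b while its nearest gene is another one.

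Promoters shared with a neighbour on the opposite strand were about as frequent as at other genes with a peak, and the difference was not tested. At 19 of the 34 genes (55.9%) the summit was also upstream of the start of an opposite-strand gene no more than 1000 bp away, beside 50.5% of all genes with a promoter peak. RpS27 faces Nup37, a nuclear pore protein gene, with the summit 10 bp from the RpS27 start and 134 bp from that of Nup37. At RpS20 it was 157 bp from RpS20 and 176 bp from CG17271. RpS6 faces bys, for the small-subunit assembly factor bystin, and the single peak there was 53 bp inside RpS6 and 602 bp upstream of bys. RpS27A shares its start site with Ip259 on the same strand, and no distance separates them. The 19 genes with an opposite neighbour had a median rank of 1444 and the 15 without of 2595. For 31 of the 34 genes the member was itself the gene nearest to the summit, with the tie at RpS27A given to Ip259 by order of name. A matching share over all genes is not given here.

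Of 6 pairs of gene copies, matched by symbol with a final letter a or b, 4 had a clearly stronger peak at one copy. The proteins of the copies were not compared. RpS5a had 259 against 34.7 at RpS5b, a copy known for its expression in the ovary, a ratio of 7.46. The ranks were 981 and 18107 in replicate 1 and 515 and 13856 in replicate 3. RpS15Aa had 166 (X, 13337594 to 13337780) against 54.8 at RpS15Ab, a ratio of 3.03, with replicate ranks of 2096 and 1384 against 8125 and 10619. RpS15Ab has a single exon, and its call lay 2 bp inside the neighbouring gene Lsm10. RpS28b had 243 (X, 9554457 to 9554710) against 98.6 at the single-exon copy RpS28a (3R, 30022512 to 30022947), a ratio of 2.46. The ranks were 1097 and 599 at RpS28b and 3428 and 4930 at RpS28a, in replicates 1 and 3. RpS10b had 292 against 121 at the single-exon copy RpS10a (3R, 27652298 to 27652733), a ratio of 2.42, with ranks of 853 and 364 against 3537 and 2332. In these 4 pairs both replicates and the pooled list ranked the copies in the same order.

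The other 2 pairs were close. RpS14a and RpS14b stand side by side on X, with peaks of 124 (7933439 to 7933874) and 157 (7934637 to 7935072) whose summits were 1198 bp apart. RpS14b ranked better in both replicates, at 1949 against 2556 and at 1801 against 3236. The bodies of RpS14a and RpS14b share an identical run of 193 bases, and the 2 peaks share none longer than 11 bases. RpS19a had 97.1 (X, 16637664 to 16638099) and RpS19b had 98.2, a ratio of 1.01. RpS19a ranked slightly better in each replicate, at 2739 against 3135 and at 5212 against 5991, while RpS19b ranked better in the pooled list. The RpS19b summit is the one 916 bp from its gene. In the other pairs the peaks shared no identical run longer than 25 bases, found at RpS15Aa and RpS15Ab.

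**Figure D5:**
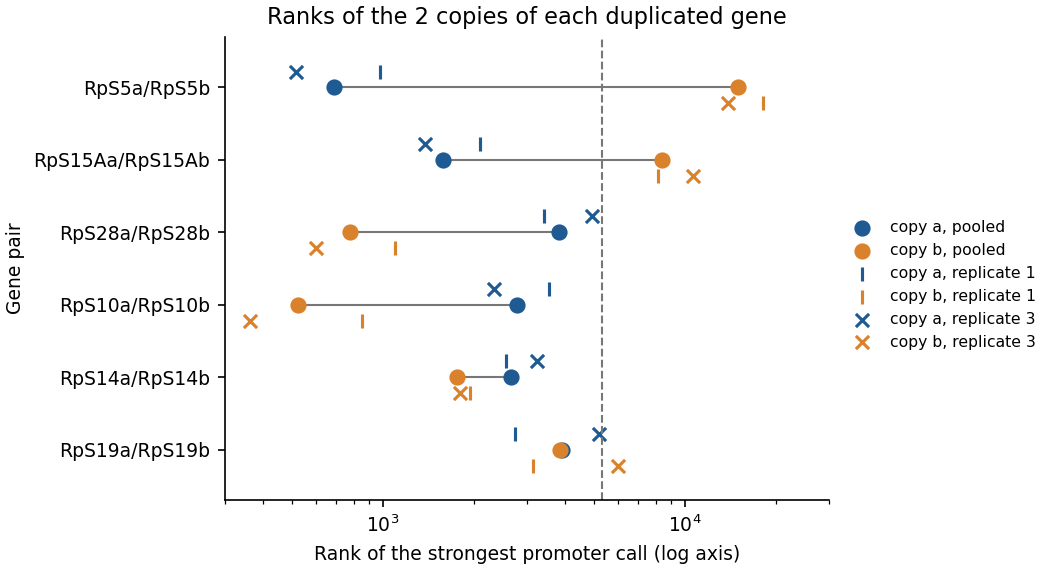
Rank of the strongest promoter call, on a log axis, at both copies of 6 duplicated genes, for the pooled calls (points), replicate 1 (bars) and replicate 3 (crosses), with copy a in blue and copy b in orange. The dashed line is the end of the optimal list at 5321. RpS5a and RpS5b are farthest apart, at 689 and 15019, and RpS19a and RpS19b nearly coincide, at 3908 and 3848.

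Second summits accompanied some of the strong peaks. RpS25 had a second summit of 175, 252 bp upstream, in the 5′ UTR of its opposite neighbour CG4820. RpS28b had one of 171, 828 bp upstream, close to l(1)G0320, with replicate ranks of 761 and 3059. RpS5a had one of 104, 250 bp upstream, and RpS12 had one of 83.8 in its own intron, 178 bp downstream. At RpS25, RpS5a and RpS12 the strongest replicate calls that overlapped the second peak were the ones that overlapped the first, so the replicates give no separate value. RpS28a had a second summit of 84.9 in the 5′ UTR of Mgat2.

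Genes for proteins that work with the small subunit, or in ribosome assembly, also had peaks. The shares below stand beside 30.3% of all protein-coding genes. Their difference from the share of the small-subunit genes was not tested. Of 22 genes for initiation factors and binding partners, 15 (68.2%) had a promoter peak, with a median rank of 2479. The strongest were eIF3c (301), for a core subunit of the scaffold factor eIF3, eIF1 (284), for the start-codon selection factor, eIF3h (283) and eIF3a (239). The eIF1 summit was nearer to RpL28. Rack1, for a signalling scaffold on the head of the subunit, had a peak of 165 with its summit exactly on the TSS, and S6k had 137, with replicate ranks of 4778 and 1545. No promoter peak lay at eIF3d1, eIF3e, eIF3g1, eIF3i, eIF3j, eIF3l or eIF5. Of 10 ribosome assembly factor genes, not all of them particular to the small subunit, 7 (70.0%) had a peak. Highest were the kinase genes RIOK1 (206) and RIOK2 (182) and the nucleolar methyltransferase gene Fib (170). The RIOK2 summit was nearer to GlnRS. The Nop56 peak had 87.7, hoip had 79.3 with pelo as the nearest gene, and bys shared the RpS6 peak. Non3, Nnp-1 and nop5 had none.

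Motifs were searched as exact letters around the gene starts and the summits. The window ran from 250 bases before the gene start to 50 bases after it, on both strands. TATCGATA (DRE) was in 13 of 38 windows (34.2%) and in 9.36% of all protein-coding windows of that length. Wholly within 50 bp of the strongest summit it was found at 6 of 34 members (17.6%), RpS25, RpS29, RpS10b, RpS12, RpS14a and RpS24, and at 3.55% of all optimal summits. Its core ATCGAT, which lies within TATCGATA and was added with the sequences in view, was at 11 of 34 summits (32.4%) and 9.34% of all. Unlike the members' summits, the set of all optimal summits was not limited to those within 1000 bp of a TSS. Both summit shares therefore compare unlike sets. At RpS25 the middle of the DRE was 6 bp from the summit and at RpS29 it was 10 bp away, and the end of the stretch printed above cuts that match. Over the 12 DRE matches at bound genes the median distance was 43.5 bp and the largest 424 bp, at RpS16, and 7 had their middle within 50 bp. The 11 bound genes with a DRE had a median rank of 1585 (208 to 3831) and the 23 without one of 2576 (70 to 4777), and the strongest gene, RpS27, had none.

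The other searched motifs were absent, or were in shares set here beside those of all genes. TGACGTCA (CRE), TGACTCA (AP-1) and CACGTG (E-box) were in none of the 38 windows, and in 0.437%, 2.49% and 4.20% of all windows. TGACGT, the CRE half-site that is also part of TGACGTCA, was in 3 (7.89%, beside 6.65%), at RpS14a, RpS19b and RpS3, and within 50 bp of none of their summits. GGTCACACT (Motif 1, of the promoter factor M1BP) was in 4 windows (10.5%, beside 6.05%), at RpS15, RpS23, RpS9 and sta. TATAAA, the letters of the TATA box, was in 21 (55.3%, beside 45.8%). Upstream of the gene start, the nearest of these matches began at -61 bases, at RpS7. The letters GAGAG, bound by GAGA factor, were in 4 (10.5%, beside 29.7%). GTAAACA, a forkhead (FOXO) site, was in 1 (2.63%, beside 9.19%), at RpS14b. These are matches of letters in a window, not sites shown to be bound by the named factors.

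The pyrimidine start was counted through CTTT on the gene strand. It began within 2 bp of the annotated gene start at 4 of 38 genes (10.5%), beside 2.20% of all. Within 10 bp, a distance chosen after seeing that the runs lie a few bases past the annotated starts, it was at 17 (44.7%), beside 58.3% of large-subunit genes and 10.7% of all. RpS5b, with the weakest call, was among the 17, and RpS27, with the strongest peak, was not.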

How the data were processed

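The authors deposited ChIP-seq peak lists for 2 biological replicates, for both together (pooled) and for an optimal list that, per the file names, was thresholded by the irreproducible discovery rate (IDR), a score of agreement between replicates. Per the labels, chromatin from 0 to 24 h embryos was sonicated and precipitated with anti-GFP. No source used here gives the aligner, the caller or the version of the IDR software. Read depth is unknown. Values are the authors' deposited peak signal (column 7) and their −log10 q, and the deposited summit offset gave positions. Replicate and pooled lists hold 30000 calls each. The optimal list holds 5321, which are the first 5321 of the pooled list by signal. Lists in the dm3 build and control data were not analysed here.

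Summits were assigned to TSSs of Ensembl release 115 gene models (dm6) within 1000 bp, with Python 3.11.15 and NumPy 2.4.6 (plots with matplotlib 3.10.9), and the assignment was tested on simulated peaks. Ranks order signals within a list, and a replicate's value is its strongest call overlapping the peak by at least 1 bp. The scale of the signal may differ between lists, so ranks are given beside signals. Over all optimal peaks the median log2 ratio of replicate 1 to replicate 3 signal was -0.04. With 1 group no test between groups was made, and no p-value is given. The rule for genes named in full took the 8 highest signals, genes without a peak, the duplicated pairs, and genes whose replicate ranks differed over 2 times; sequences are those of the 5 strongest genes not on arm 2R and of the pairs with neither copy on 2R. A few members enter the counts and medians but are not reported one by one here. Genes entered their lists by name, but the small-subunit family and the other lists were chosen for description with earlier results of these data known. The alternatives were other distances, assignment to the nearest gene, the gene's own 5′ end, the upper part of the list, an overlap of 50% and each replicate alone.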

Additional observations from a re-analysis of the deposited data

How the results depend on the processing

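With 500 bp in place of 1000 bp, 33 genes had a promoter peak and the median rank was 1760, without RpS19b. With 2000 bp it was 36 genes, with RpS13 and RpS15Ab. Assignment to the nearest gene alone gave 32, without RpS19b and without RpS27A, which ties with Ip259 and comes after it by name. The upper part of the list (2660 peaks) left 19 genes, a median rank of 781, a median distance of 24 bp and 19 genes among the first calls of both replicates. Distances to the 5′ end of the gene in place of any TSS had a median of 43.5 bp. Leaving out replicate 1 or replicate 3 gave 33 genes in each case, a median rank of 1784 to 2096, a median distance of 26 to 32 bp, and 30 genes among the first calls of the replicates. Without replicate 1 the count lost RpS19b and RpS30 and gained RpS9. Without replicate 3 the genes lost included RpS6, and RpS13 was gained. CTTT within 10 bp of the start, added after seeing the data, raised the count from 4 to 17. Apart from the tie at RpS27A and the fewer peaks in the upper part of the list, the cause of these shifts was not tested.

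No paired analysis was possible because there is 1 group and no test between groups. The read depth is unknown, so no counting interval is given for a signal, and 2 replicates give only a rough spread. RpS19a ranked better than RpS19b in both replicates but not in the pooled list.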
